A study of Mus musculus with 18 samples.

Results

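40 genes of the lysosome and of the V-ATPase, the proton pump that acidifies it, were followed in the panRNA counts by gene name, with the reads of all transcripts listed under a name added up. All 40 names were in the table, on 233 transcript entries, and 39 had at least 5 reads in at least 2 of the 18 libraries, as did 13552 of the 35960 names and unnamed entries in the whole table. The member that did not was *Ctsk*, the cathepsin of bone-resorbing osteoclasts, which had at most 4 reads in an astrocyte library and 0 in every library of the other fractions. Lysosomes are the acidic organelles in which proteins, glycans and lipids delivered by endocytosis, phagocytosis and autophagy are broken down. Cathepsins and other hydrolases do the cleavage, the V-ATPase pumps in the protons that keep the lumen acidic, and membrane proteins such as the LAMPs coat the organelle and export its products. In the brain this machinery is known best from microglia, which take up debris and synapses, and inherited loss of single members causes neuronal storage diseases.

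The libraries came from brains of 10-month-old mice with a C57BL/6 background, either homozygous for the *Atxn2*-CAG100-knockin allele (KIN), an expanded CAG repeat placed into the *Atxn2* gene, or wild-type (WT) littermates of the same sex, with males and females among the pairs. Microglia (with CD11b beads), astrocytes (with ACSA-2 beads) and neurons (the unlabelled rest after depletion of non-neuronal and CD31-bearing cells) were taken one after the other from a single brain, so that the fractions share animals. Each of the 6 groups had 3 libraries, numbered as biological replicates. Library totals were 2118317 to 2829969 counts for astrocytes and 2334633 to 3296398 for microglia. The neuronal totals were 761481 to 1017972 (WT) and 1473194 to 2017932 (KIN), so that genotype and depth went together in the neuronal fraction. In every library its 10 most abundant transcripts held 76.0% to 85.7% of the counts. All other transcripts together had 469298 to 649157 counts in astrocytes and 431980 to 601172 in microglia. In neurons they had 109260 to 171467 (WT) and 225535 to 292139 (KIN). Levels are given as CPM, the counts relative to the library totals after TMM scaling over the 18 libraries, where fewer cells of a type and less RNA per cell cannot be told apart. Summed over 9 microglial markers, the level was 765 to 1227 CPM in microglia, 11.3 to 16.9 (WT) and 6.62 to 11.1 CPM (KIN) in astrocytes, and 7.98 to 14.0 (WT) and 10.3 to 21.0 CPM (KIN) in neurons, where *Cx3cr1* was detected in every library and *Aif1*, *Tmem119* and *P2ry12* were at 0, and the astrocyte markers *Aqp4* and *Fgfr3* were high only in astrocyte libraries. The neuronal fraction went only partly with its label, as *Tubb3* and *Gad1* were highest there but *Snap25*, *Syt1* and *Nrgn* were not, and it also held reads of the T cell genes *Cd3e* and *Cd3d* and of the haemoglobin genes *Hbb-bs* and *Hba-a1*. Several libraries stood apart from the others of their group in a marker list, among them those named here. WT microglia replicate 2 had summed microglial markers of 1227 CPM against 765 and 772 CPM in the other WT libraries. Its summed neuronal markers were 18.3 CPM against 71.2 and 75.1 CPM, and its TMM factor was 0.613 against 1.19 and 1.01. Its 10 most abundant transcripts held 85.3% of its counts, against 78.8% and 81.5%. WT astrocyte replicate 2 had summed neuronal markers of 41.9 CPM against 120.5 and 148 CPM. KIN microglia replicate 2 had summed neutrophil and monocyte markers of 99.5 CPM, mostly *S100a8* and *S100a9*, against 26.8 and 32.9 CPM in the other KIN libraries and 55.5 to 72.8 CPM in WT. WT neuron replicate 2 had summed oligodendrocyte markers of 249.9 CPM, mostly *Mbp*, against 17.3 and 22.6 CPM in the other WT and 24.3 to 38.6 CPM in the KIN libraries. Summed endothelial markers, mostly *Pecam1*, were 68.0 CPM in KIN astrocyte replicate 2 against 36.5 and 42.1 CPM in the other KIN libraries. In WT neuron replicate 3 they were 26.6 CPM against 12.3 and 13.0 CPM. The counts of calls that rest on the named libraries are given with and without them, other than for KIN libraries taken in place of WT.

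Many lysosomal genes share a short promoter element, CACGTG with flanking letters, that is bound by TFEB, the transcription factor that raises lysosomal gene expression as a group. Promoter windows from 250 bases before to 50 bases after the start of the canonical transcript were read from GRCm39 with the GENCODE vM39 annotation. The 6 letters CACGTG, which read the same on both strands, were found in 8 of the 40 member windows (20%) and in 7.81% of the 21770 windows of protein-coding genes. The longer TCACGTGA, which contains CACGTG, was found in 2 member windows (*Ctsb* and *Mcoln1*) and in 1.11% of all windows. A match says only that these letters are there. The windows below are those of the members that passed the test between genotypes in microglia or astrocytes and held the letters, which are shown in capitals, with 30 bases for each and the first of the 4 matches of *Lamp1*. They lie at chr14:63359879-63359908, plus strand for *Ctsb* (CACGTG from base 15 of the transcript), at chr7:141941792-141941821, minus strand for *Ctsd* (from 34 bases before the start), and at chr8:13209088-13209117, plus strand for *Lamp1* (from 21 bases before the start).
Ctsb: gcggtcaagcaTCACGTGAcgaatcagccc
Ctsd: tcttccttccccCACGTGacctgtatccag
Lamp1: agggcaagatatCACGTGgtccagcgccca

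The first comparison was that of the cell types without the mutation. In WT mice the summed level of the members was highest in microglia and lowest in neurons. Summed over the 40 genes, the level was 2589 to 5095 CPM in WT microglia, 674 to 931 CPM in WT astrocytes and 254 to 317 CPM in WT neurons. Most of the microglial sum came from *Cst3* (958 to 2470 CPM) and *Ctsd* (576 to 967 CPM). Taking the highest mean of any group, KIN groups included, 31 of the 39 members had it in microglia, 7 in astrocytes and 1, *Lamp2*, in neurons. These counts are therefore not those of WT alone. In WT replicates 1, 2 and 3, *Lamp2* was at 35.0, 101 and 49.6 CPM in microglia and 46.4, 48.1 and 47.9 CPM in neurons. Its WT mean was thus higher in microglia, through replicate 2. A member was said to pass, to rise or to fall at an adjusted *p* of at most 0.05 in the quasi-likelihood test of edgeR, with Benjamini-Hochberg adjustment over all genes of the fit. Against WT astrocytes, 20 of 39 members were higher in WT microglia and 0 lower, where 12.7% of the 12305 genes tested were higher, 13.6% lower and 26.4% either. The median log2 fold change (log2FC) of the members was 0.92 and that of all genes -0.04. The study's stricter rule, which also asks for an absolute log2FC of at least 1, left 18 of the 20 (25.1% of all genes).

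**Figure D1:**
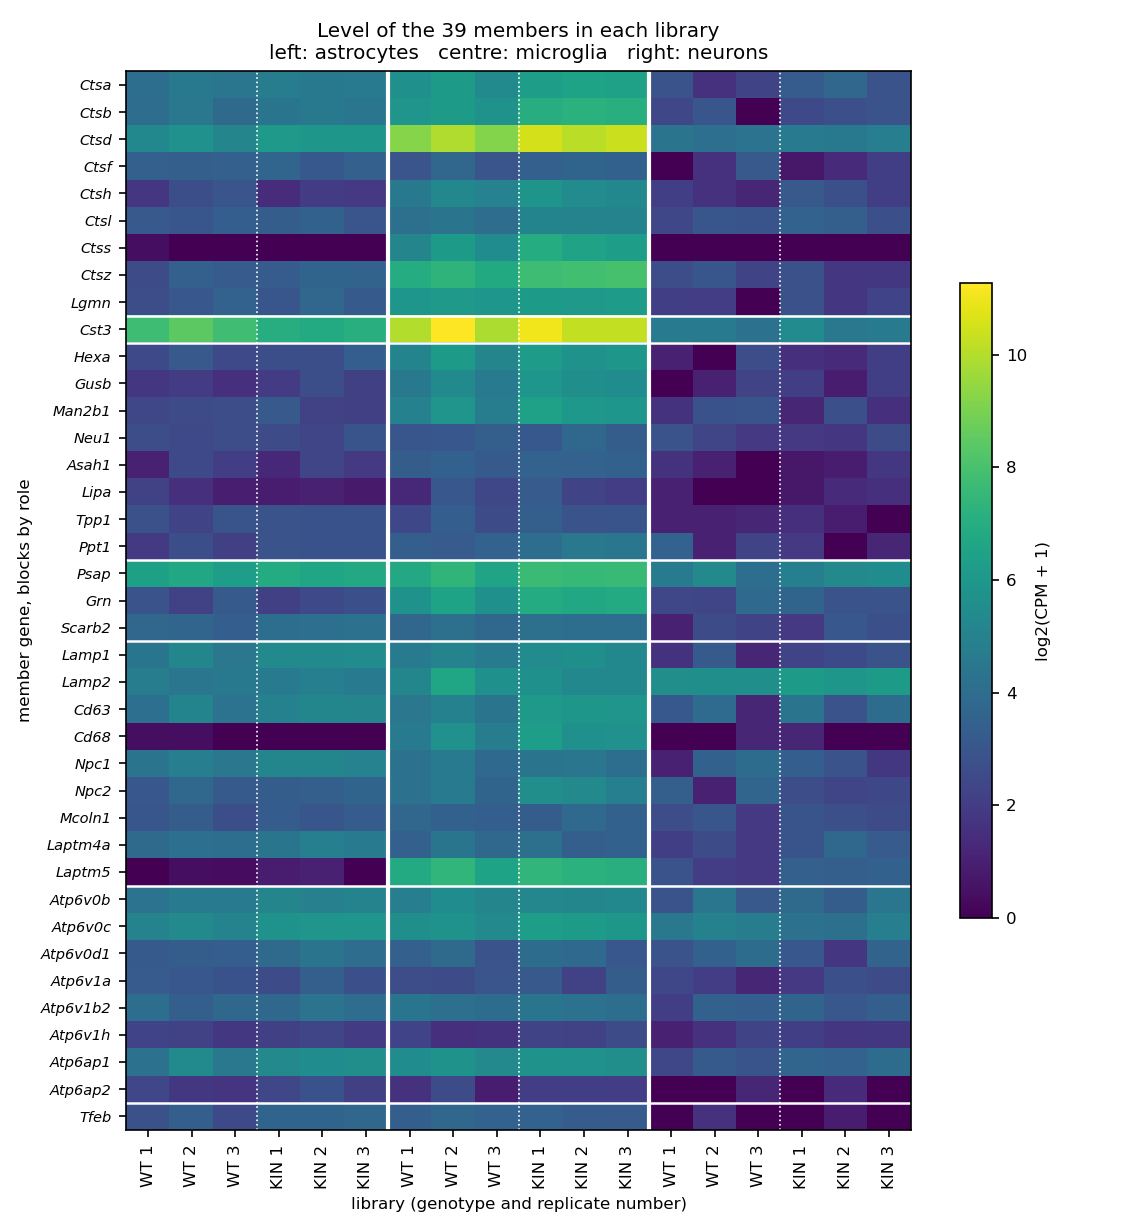
Level of the 39 members in each of the 18 libraries as log2(CPM + 1), with members in rows by role and libraries in columns by fraction and genotype. Colours are to be read along a row, since CPM is not corrected for transcript length. Most rows are brightest in the 6 microglial columns and darkest in the 6 neuronal ones, *Ctss*, *Cd68* and *Laptm5* are near 0 in all astrocyte columns, and *Lamp2* departs from this in the neuronal columns.

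Of the proteases, 8 of the 9 tested members of the group of cathepsins and legumain were higher in WT microglia than in WT astrocytes, and the one that was not, the cysteine cathepsin *Ctsf*, stood at 6.83, 12.4 and 6.78 CPM in microglia and 9.87, 9.74 and 10.01 CPM in astrocytes, with overlapping libraries. *Ctss*, a cysteine cathepsin of antigen-presenting cells, was at 33.5, 70.3 and 43.7 CPM in the WT microglial libraries (in the order of the replicate numbers, as in all triplets that follow) and at 0.352, 0 and 0 CPM in WT astrocytes. Since no WT astrocyte library had more than 3 reads of it, the fold is a lower bound against 3 counts per library, at least 49.7-fold higher in microglia. On the same terms *Cd68*, the heavily glycosylated LAMP-family protein of macrophage endosomes, was at least 34.0-fold higher (23.7, 51.5 and 25.9 CPM), and *Laptm5*, a lysosomal membrane protein of haematopoietic cells, at least 128-fold higher (118, 171 and 91.5 CPM). In the same astrocyte libraries *Cx3cr1* was at 4.58, 2.92 and 5.95 CPM and *Csf1r* at 2.11, 1.62 and 3.13 CPM, while *Aif1* and *P2ry12* were at 0. The aspartic protease *Ctsd* was at 598, 967 and 576 CPM in WT microglia and 37.0, 51.0 and 34.4 CPM in WT astrocytes (log2FC 4.15 ± 0.35 (SE), adjusted *p* = 8.69e-21), and the carboxypeptidase *Ctsz* at 124, 161 and 115 against 4.93, 10.1 and 8.45 CPM (log2FC 4.10 ± 0.36 (SE), adjusted *p* = 8.88e-20). The groups were far apart for both. *Cst3*, the secreted inhibitor of cysteine cathepsins, was also higher in microglia, at 1016, 2470.2 and 958 CPM in microglia and 219, 341 and 222 CPM in astrocytes (log2FC 2.53 ± 0.33 (SE), adjusted *p* = 5.59e-11).

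Among the hydrolases, 5 of 8 were higher in WT microglia, namely *Hexa*, *Gusb*, *Man2b1*, *Asah1* and *Ppt1*, which cleave gangliosides, glucuronides, mannosides, ceramide and protein-bound fatty acids. The other hydrolases *Neu1*, *Lipa* and *Tpp1* did not pass, with WT levels of 7.12, 7.42 and 9.75 CPM in microglia and 5.29, 4.54 and 5.32 CPM in astrocytes for *Neu1*, which trims sialic acid. Of the cofactors, progranulin (*Grn*) was at 51.9, 90.6 and 50.01 CPM in microglia and 6.34, 3.57 and 8.14 CPM in astrocytes (log2FC 3.43 ± 0.35 (SE), adjusted *p* = 1.2e-15), while prosaposin (*Psap*), the precursor of the sphingolipid activators, had overlapping libraries at 112, 164 and 94.5 and 84.2, 105 and 78.2 CPM (log2FC 0.49 ± 0.31 (SE), adjusted *p* = 0.265). Of the V-ATPase 1 of 8 members passed, a share near that of all genes. This was the accessory subunit *Atp6ap1*, at 43.0, 53.9 and 38.1 CPM in microglia and 17.3, 39.3 and 21.6 CPM in astrocytes (log2FC 0.80 ± 0.31 (SE), adjusted *p* = 0.0409), and its libraries overlapped by one. Its call was lost with DESeq2, with the highest transcript, without the low-count filter, with a mean of at least 10 counts, in the KIN libraries, and without WT astrocyte replicate 1 or 3 or WT microglia replicate 1 or 2. All WT microglial libraries lay above WT astrocytes for *Atp6v0b* (27.3, 43.1 and 33.5 CPM in microglia, 18.3, 23.0 and 24.1 CPM in astrocytes) and for *Atp6v0c* (48.7, 53.5 and 38.1 and 31.7, 38.0 and 32.2 CPM), which did not pass. The peripheral subunits *Atp6v1a*, *Atp6v1b2* and *Atp6v1h* overlapped between both glial fractions, as did the LAMP *Lamp1*, the tetraspanin *Cd63* and the cholesterol exporter *Npc1*. The members with the lowest log2FC in this comparison were *Atp6v1a* (5.34, 4.95 and 6.78 CPM in microglia, 8.46, 7.46 and 6.26 CPM in astrocytes), the accessory subunit *Atp6ap2* (2.08, 4.95 and 0.848 and 4.23, 2.60 and 2.19 CPM), *Atp6v1h* (3.86, 1.98 and 2.12 and 3.88, 3.57 and 2.504 CPM) and *Npc1* (17.5, 24.7 and 13.6 and 19.0, 27.6 and 21.3 CPM). None of them passed. The KIN libraries, as a repeat of the same comparison, gave 23 members higher and 2 lower (*Laptm4a* and *Npc1*), and 19 of the members they called were among the 20 of WT. Over all genes the KIN libraries gave 20.1% higher and 21% lower. In WT, 18 members were higher without WT microglia replicate 2, *Atp6ap1* and *Npc2* being lost, and 21 without WT astrocyte replicate 2, *Tfeb* being added, where 11.3% and 12.5% of all genes were higher.

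In the neuronal fraction the depth limits what can be said, as 3 counts in a WT library came to 3.43 CPM on average, and 11 of the 39 members had at most 3 reads in every WT neuronal library, among them *Ctss*, *Cd68*, *Ctsh*, *Lgmn* and *Tfeb*. Against WT astrocytes 15 of 39 members were lower and 2 higher, where 12.1% of all genes were lower, 6.17% higher and 18.3% either. Against WT microglia 28 were lower and 0 higher, where 11.9% of all genes were lower, 5.34% higher and 17.2% either. Without WT astrocyte replicate 2, 12 members were lower than in astrocytes (10.4% of all genes), without WT neuron replicate 2, 12 were (10.0%), and without WT neuron replicate 1, 10 were (9.20% of all genes). Without WT neuron replicate 3, 14 were (9.58%). Without WT microglia replicate 2, 25 were lower than in microglia (11.4% of all genes), without WT neuron replicate 2, 25 as well (9.46%), and without WT neuron replicate 3, 28 (9.66%). The median log2FC of the 39 was -1.24 against astrocytes and -2.54 against microglia, and -0.53 and -1.67 with the genes at the floor set to their bound. All genes, for which no such bound was set, had medians of -0.35 and -0.30. *Cst3* had the smallest adjusted *p* of the members against both glial fractions, at 23.8, 24.6 and 17.3 CPM in WT neurons (log2FC -3.54 ± 0.37 (SE), adjusted *p* = 3.53e-15 against astrocytes). *Ctsd* was at 19.4, 16.4 and 18.6 CPM in WT neurons, below every WT library of both glial fractions (log2FC -5.28 ± 0.39 (SE), adjusted *p* = 1.58e-24 against microglia). *Atp6v0c*, the subunit of the membrane ring through which the protons pass, was at 21.6, 29.7 and 26.6 CPM, below all WT astrocyte libraries but without passing (log2FC -0.35 ± 0.34 (SE), adjusted *p* = 0.522).

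The members that were higher in WT neurons than in WT astrocytes were *Laptm5* and *Lamp2*. *Laptm5* was at 6.48, 3.07 and 2.66 CPM in WT and 9.97, 9.71 and 10.3 CPM in KIN neurons, and 0 to 1 read per library in WT astrocytes. As the WT neuronal libraries had only 6, 3 and 2 reads of it, 2 of them at or under 3 counts, no fold is given. Beside this, the 9 microglial markers summed to 7.98 to 14.0 CPM in WT and 10.3 to 21.0 CPM in KIN neurons, with *Aif1*, *Tmem119* and *P2ry12* at 0 in all 6 libraries. The 4 neutrophil and monocyte markers summed to 9.22 to 18.6 and 14.1 to 24.6 CPM, with *S100a8* and *S100a9* at 0, and the T cell markers *Cd3e* and *Cd3d* to 18.4 to 20.5 and 16.0 to 21.0 CPM. The part of any of these cells in the level of *Laptm5* was not tested. *Lamp2*, the LAMP needed for the fusion of autophagosomes with lysosomes, was at 46.4, 48.1 and 47.9 CPM in WT and 69.1, 60.7 and 68.6 CPM in KIN neurons, against 25.7, 20.8 and 22.2 CPM in WT astrocytes and 35.0, 101 and 49.6 CPM in WT microglia (against astrocytes log2FC 1.10 ± 0.34 (SE), adjusted *p* = 0.0118). Its call was lost without WT astrocyte replicate 3. The reads of *Lamp2* were spread unevenly over its transcripts. In the neuronal libraries 87.2% to 98.1% of them were listed under a single transcript (ENSMUST00000074913), with 2 to 6 reads per library on all its other transcripts, whereas in astrocytes this share was 57.8% to 87.7% and in microglia 59.6% to 87.8%. The library with the highest count on this transcript was WT microglia replicate 2, with 180 of 205 reads. Whether reads listed there come from that transcript alone was not tested.

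**Figure D2:**
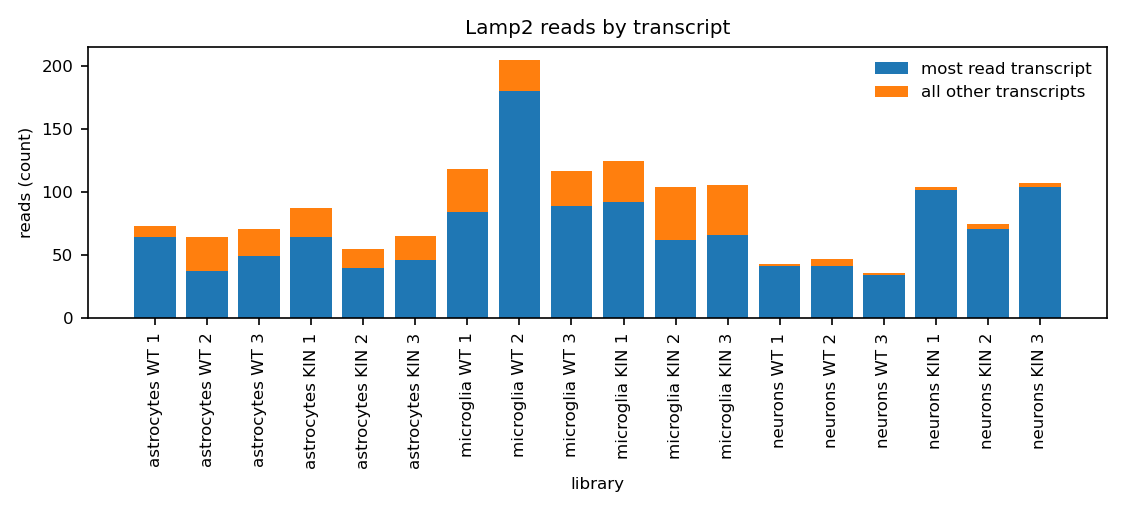
Reads of *Lamp2* in each of the 18 libraries, as counts, divided into the most read transcript (blue) and all other transcripts (orange). The orange part is 2 to 6 reads in the neuronal libraries, 9 to 27 in astrocytes and 25 to 42 in microglia.

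In microglia 5 of 39 members rose in KIN and 0 fell, where 0.840% of the 10831 genes tested rose, 0.794% fell and 1.63% did either. They were the tetraspanin *Cd63* of late endosomes and exosomes, the cysteine cathepsins *Ctsb* and *Ctsl*, the cholesterol-binding *Npc2* and the depalmitoylating enzyme *Ppt1*. 36 of the 39 had a positive log2FC, with a median of 0.35 and -0.00 over all genes. In 18 of 39 all KIN libraries lay above all WT libraries and in 0 below, where 8.49% of all genes lay above and 16.0% did not overlap in either direction. With the study's rule on the size of the change, 4 members were left, and 1.52% of all genes.

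*Cd63* was at 21.1, 29.7 and 19.1 CPM in WT and 67.0, 61.9 and 57.1 CPM in KIN microglia (log2FC 1.42 ± 0.24 (SE), adjusted *p* = 0.00178), with the lowest KIN library far above the highest WT library. *Ctsb* was at 58.5, 68.8 and 53.0 CPM in WT and 130.4, 148 and 132 CPM in KIN (log2FC 1.19 ± 0.22 (SE), adjusted *p* = 0.0056). *Ctsl*, a close relative of *Ctsb* in its mechanism, was at 16.6, 19.3 and 15.3 CPM in WT and 32.5, 31.5 and 32.4 CPM in KIN (log2FC 0.92 ± 0.23 (SE), adjusted *p* = 0.0408). Each of these genes had KIN libraries close to each other and clear of WT. *Npc2*, which hands cholesterol to *Npc1* in the lysosomal lumen, was at 17.8, 23.8 and 11.4 CPM in WT and 46.8, 38.0 and 28.2 CPM in KIN (log2FC 1.10 ± 0.27 (SE), adjusted *p* = 0.034), with a wider spread. Its partner *Npc1* did not follow, at 17.5, 24.7 and 13.6 and 19.4, 20.4 and 15.7 CPM (log2FC 0.01 ± 0.25 (SE), adjusted *p* = 0.998). *Ppt1*, whose loss causes infantile neuronal ceroid lipofuscinosis, was at 9.50, 8.41 and 10.6 CPM in WT and 15.9, 21.8 and 20.5 CPM in KIN (log2FC 1.03 ± 0.25 (SE), adjusted *p* = 0.0353).

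**Figure D3:**
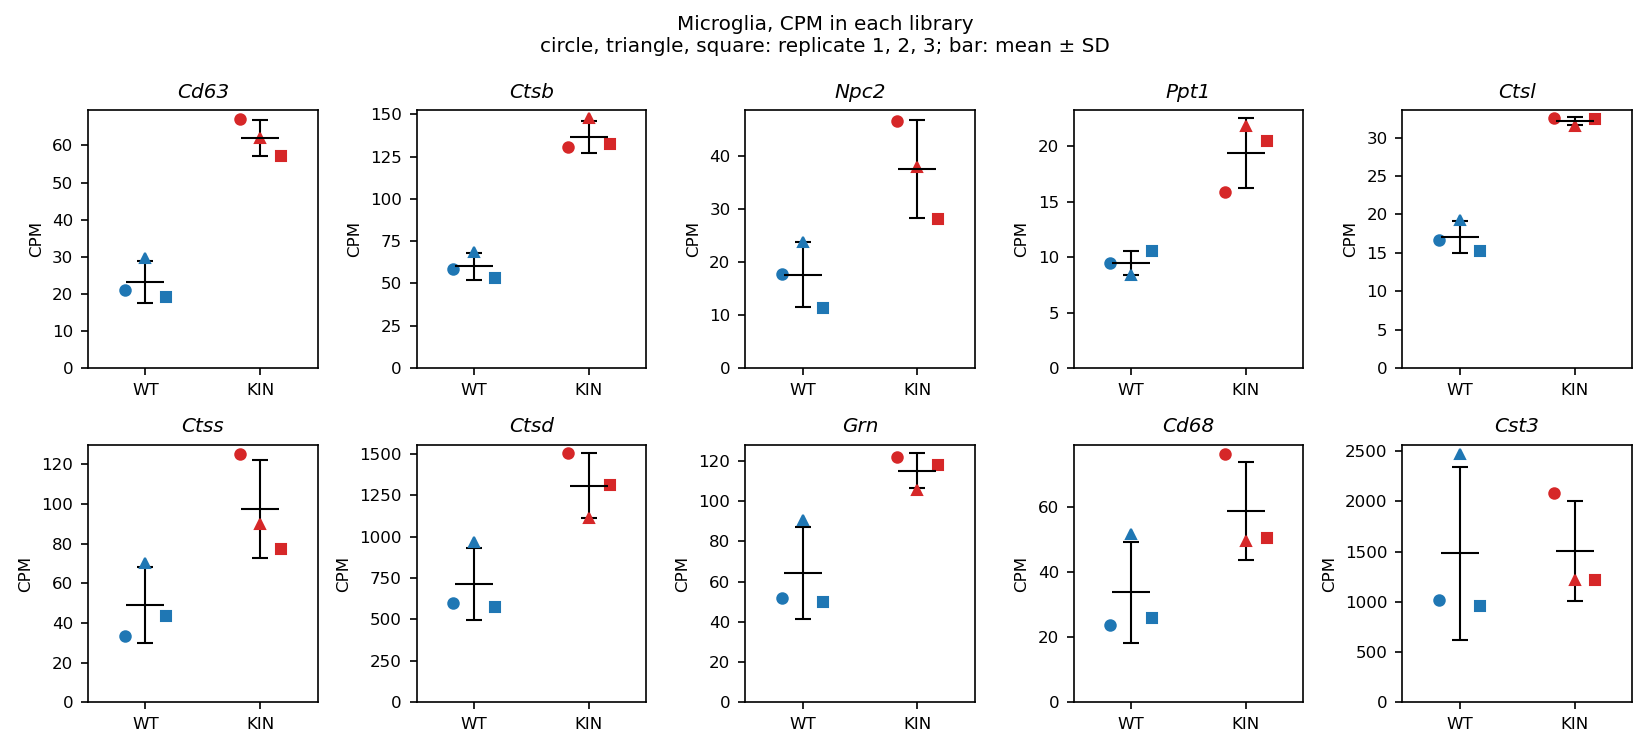
CPM of 10 members in each microglial library on linear axes that start at 0, WT in blue and KIN in red, with marker shapes for the replicate numbers and bars for mean ± SD (n = 3). KIN libraries lie clear of WT for *Cd63*, *Ctsb*, *Npc2*, *Ppt1* and *Ctsl*, and WT replicate 2 (triangle) is the highest WT library for all genes shown but *Ppt1*.

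3 more cathepsins stood just outside the threshold. *Ctss* was at 33.5, 70.3 and 43.7 CPM in WT and 125, 90.2 and 77.6 CPM in KIN (log2FC 1.00 ± 0.27 (SE), adjusted *p* = 0.0526), *Ctsz* at 124, 161 and 115 and 220.0, 231 and 257 CPM (log2FC 0.82 ± 0.22 (SE), adjusted *p* = 0.059), and *Ctsd* at 598, 967 and 576 and 1503, 1111 and 1309 CPM (log2FC 0.88 ± 0.25 (SE), adjusted *p* = 0.07). For all 3 the libraries did not overlap. Summed over the cathepsins and legumain, the level was 943 to 1472 CPM in WT and 1822 to 2226 CPM in KIN. *Ctsd*, which did not pass, made up most of the sum in both genotypes. In this group 8 of the 9 tested members had libraries that did not overlap, *Ctsf* being the other. *Grn*, a cofactor that lysosomal proteases process into granulins, was at 51.9, 90.6 and 50.01 CPM in WT and 122, 105 and 118 CPM in KIN (log2FC 0.85 ± 0.25 (SE), adjusted *p* = 0.0802). The mannosidase *Man2b1* was at 29.98, 57.4 and 25.9 and 85.2, 63.7 and 60.2 CPM (log2FC 0.90 ± 0.27 (SE), adjusted *p* = 0.0904). Neither overlapped. *Cd68*, the marker of phagocytic cells, was at 23.7, 51.5 and 25.9 CPM in WT and 76.1, 49.4 and 50.4 CPM in KIN (log2FC 0.82 ± 0.28 (SE), adjusted *p* = 0.157), and the WT library with the highest value lay inside the KIN range. Of the V-ATPase, 0 of 8 members passed in microglia, with a median log2FC of 0.25, and only the libraries of *Atp6v0c* did not overlap, at 48.7, 53.5 and 38.1 CPM in WT and 78.5, 69.8 and 61.9 CPM in KIN (log2FC 0.59 ± 0.23 (SE), adjusted *p* = 0.252). *Tfeb* had overlapping libraries at 9.79, 12.4 and 10.6 and 10.7, 8.59 and 8.35 CPM, and so had the inhibitor *Cst3* at 1016, 2470.2 and 958 and 2081, 1219 and 1218 CPM (log2FC 0.03 ± 0.31 (SE), adjusted *p* = 0.993).

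These counts depended on WT replicate 2. Calls over all genes rose as well without it, to 2.88% higher and 2.33% lower. 18 of the members then rose and 0 fell, all 5 of the above among them, joined by *Ctss* (log2FC 1.34), *Cd68* (1.23), *Man2b1* (1.30), *Grn* (1.16), *Ctsd* (1.15), *Gusb*, *Ctsz*, *Hexa*, *Psap*, *Ctsa*, *Lamp1*, *Ctsh* and *Atp6v0c*. Without WT replicate 1, KIN replicate 1 or KIN replicate 3, 2 members passed (*Cd63* and *Ctsb*), and without WT replicate 3 or KIN replicate 2, 1 passed (*Cd63*). Calls over all genes fell as well in these fits, to 0.153% to 0.278% higher. Microglial markers as a list did not separate the genotypes, with 0 of 9 passing and sums of 765 to 1227 CPM in WT and 1033 to 1172 CPM in KIN. This overlap came through WT replicate 2, as the other WT libraries, at 765 and 772 CPM, lay below all KIN libraries. Neuronal markers were lower in KIN microglia (5 of 8 fell, sums of 18.3 to 75.1 CPM in WT and 9.74 to 11.5 CPM in KIN), and border macrophage markers ranged from 7.72 to 14.0 CPM in WT and from 13.5 to 18.3 CPM in KIN, with 0 of 4 tested passing and *Lyve1* at or near 0. Neutrophil and monocyte markers, with 0 of 4 passing, overlapped through KIN replicate 2. Summed oligodendrocyte markers (28.8 to 31.8 CPM in WT, 16.7 to 19.3 CPM in KIN), astrocyte markers (22.3 to 27.5 and 15.5 to 17.9 CPM) and pericyte markers (0.848 to 1.78 and 0.396 to 0.716 CPM) were also lower in KIN without overlap, and among single markers of other cells the astrocyte gene *Slc1a2* and the endothelial gene *Cldn5* fell. Their part in the result was not tested. Of 71 further genes of the lysosome and V-ATPase that could be tested in microglia, 3 rose and 0 fell, where 0.840% of all genes rose and 0.794% fell. They were the cysteine protease inhibitor *Cst7* (0.297, 1.98 and 0.848 CPM in WT, 27.0, 8.24 and 13.2 CPM in KIN), the glycoprotein *Gpnmb* (1.48, 0.99 and 2.12 and 35.7, 22.6 and 18.4 CPM) and the phagosomal metal transporter *Slc11a1* (7.12, 12.4 and 6.36 and 26.2, 22.2 and 13.9 CPM).

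**Figure D4:**
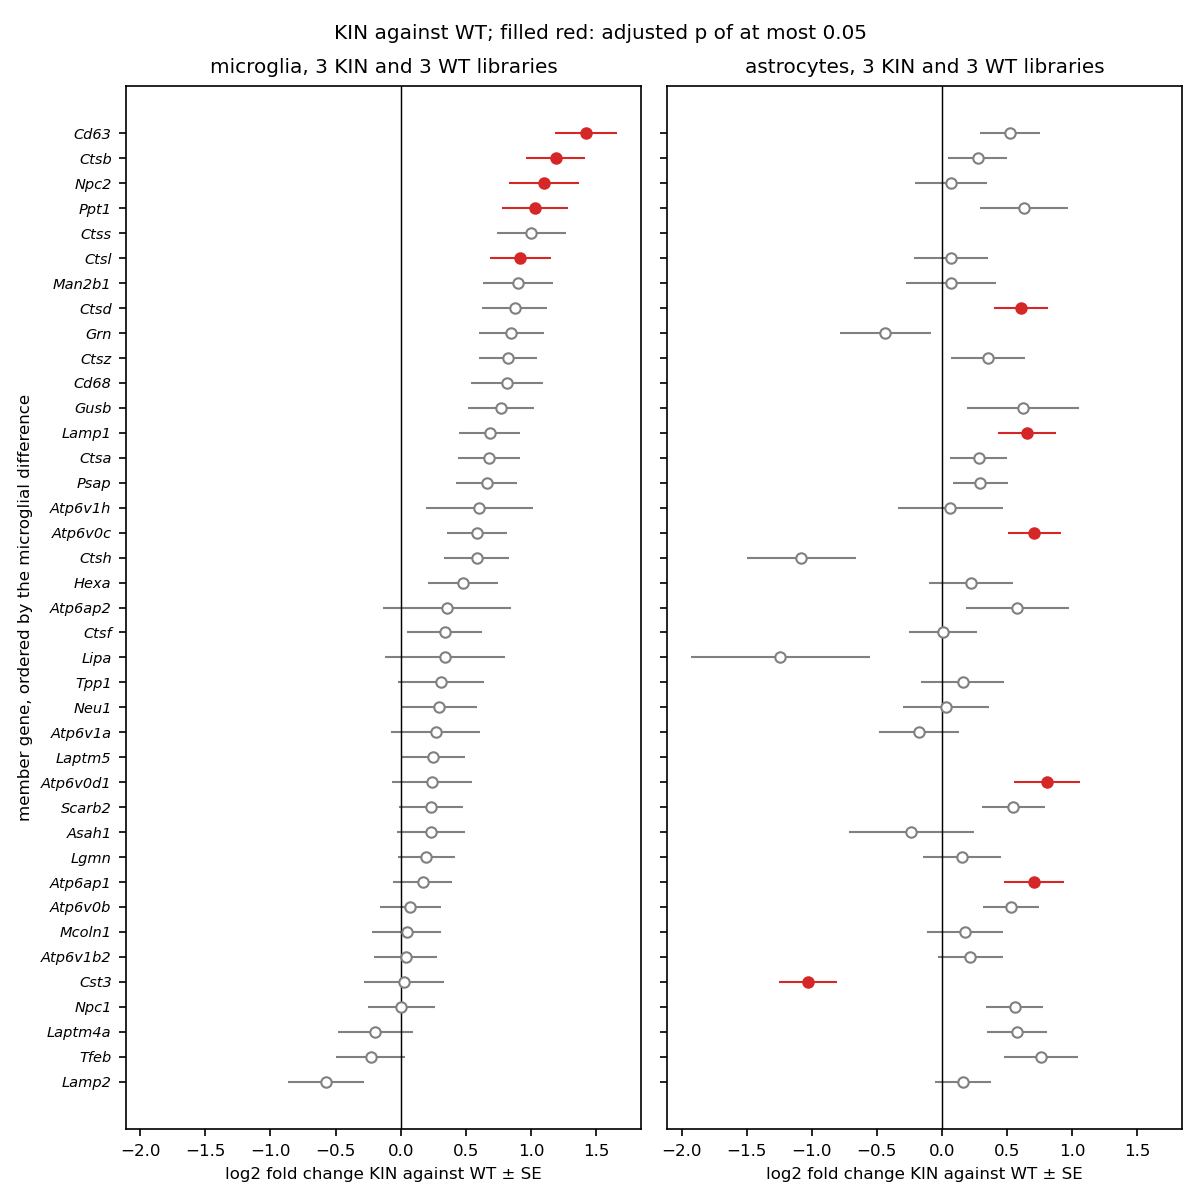
Log2 fold change of KIN against WT with its SE for each member, in microglia (left, 39 members) and astrocytes (right, the 36 that passed the filter there), 3 libraries of each genotype per fraction, ordered by the microglial value. Filled red points passed (adjusted *p* of at most 0.05), which were 5 in microglia and 6 in astrocytes, with *Cst3* the one red point below 0.

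In astrocytes 5 of 36 tested members rose in KIN and 1 fell, where 4.33% of the 11751 genes tested rose, 7.57% fell and 11.9% did either. The 5 members that rose in microglia did not pass here, which by itself does not show that the fractions differ. 3 of those that rose belong to the V-ATPase, *Atp6v0c*, *Atp6v0d1* and *Atp6ap1*, and the other two were *Lamp1* and *Ctsd*. The one that fell was *Cst3*. The libraries of 11 members lay higher without overlap and those of 1 lower, against 27.9% of all genes in either direction and 13.8% higher. Only *Cst3* met the study's rule on size, which 8.85% of all genes met.

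*Cst3* was at 219, 341 and 222 CPM in WT and 131, 118 and 138 CPM in KIN astrocytes (log2FC -1.03 ± 0.22 (SE), adjusted *p* = 0.00111), with every KIN library well below WT. *Atp6v0c* was at 31.7, 38.0 and 32.2 CPM in WT and 53.5, 57.8 and 57.8 CPM in KIN (log2FC 0.71 ± 0.21 (SE), adjusted *p* = 0.016). *Atp6v0d1*, the subunit that links the rotor to the membrane ring, was at 8.11, 9.09 and 9.39 CPM in WT and 13.8, 18.9 and 15.3 CPM in KIN (log2FC 0.81 ± 0.25 (SE), adjusted *p* = 0.0262). For both, the libraries of the genotypes were clearly apart. *Atp6ap1* was at 17.3, 39.3 and 21.6 CPM in WT and 39.1, 43.5 and 47.1 CPM in KIN (log2FC 0.71 ± 0.23 (SE), adjusted *p* = 0.0335), where WT replicate 2 lay among the KIN libraries. *Lamp1* was at 20.1, 35.1 and 21.3 CPM in WT and 40.3, 39.4 and 42.1 CPM in KIN (log2FC 0.65 ± 0.22 (SE), adjusted *p* = 0.041), and *Ctsd* at 37.0, 51.0 and 34.4 and 65.3, 61.4 and 61.6 CPM (log2FC 0.61 ± 0.21 (SE), adjusted *p* = 0.0471), with WT replicate 2 again the highest of WT. Summed over the V-ATPase, the level was 108 to 133 CPM in WT and 166 to 188 CPM in KIN, and the peripheral subunits *Atp6v1a*, *Atp6v1b2* and *Atp6v1h* overlapped between genotypes. *Tfeb* was at 5.99, 9.74 and 4.69 CPM in WT and 11.5, 11.3 and 12.2 CPM in KIN, without overlap but short of the threshold (log2FC 0.76 ± 0.28 (SE), adjusted *p* = 0.0697). *Npc1* (log2FC 0.56 ± 0.22 (SE), adjusted *p* = 0.0819), *Laptm4a*, *Atp6v0b*, *Scarb2*, *Ppt1* and *Ctsa* also lay higher without overlap and did not pass.

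**Figure D5:**
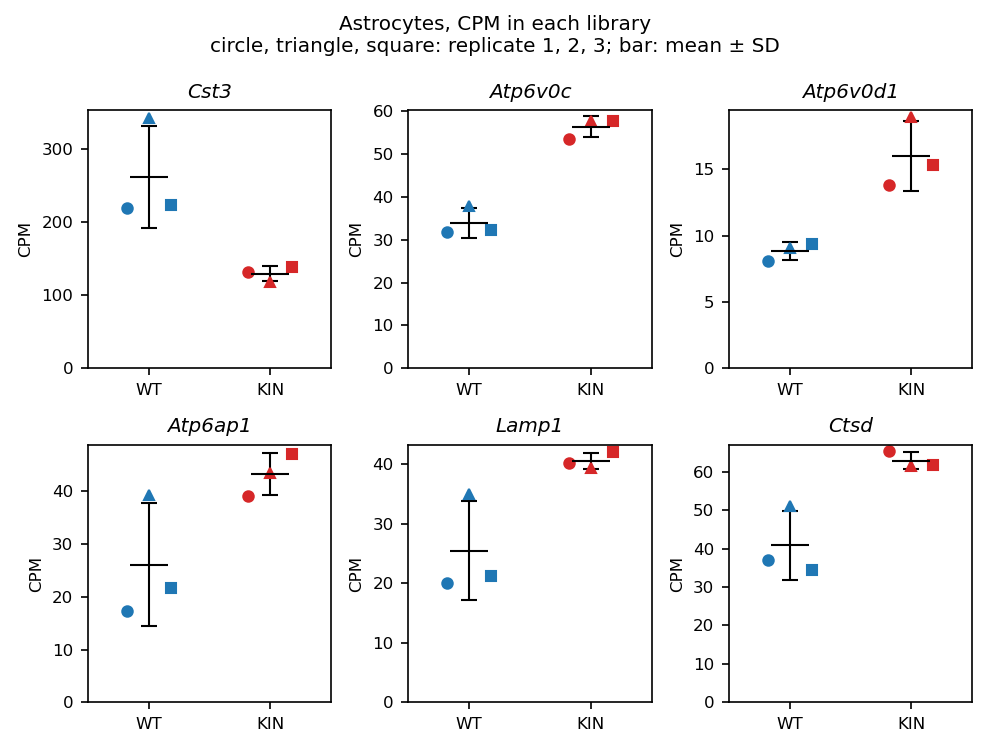
CPM of the 6 members that passed in astrocytes, in each library, on linear axes that start at 0, WT in blue and KIN in red, with marker shapes for the replicate numbers and bars for mean ± SD (n = 3). *Cst3* is lower in every KIN library, the others have the higher mean in KIN, and WT replicate 2 (triangle) lies among the KIN libraries for *Atp6ap1*.

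Calls in astrocytes were fragile other than that of *Cst3*, which passed without each library in turn. Without WT replicate 2, 10 members rose, *Atp6v0b*, *Cd63*, *Laptm4a*, *Npc1* and *Tfeb* joining the 5, where 6.98% of all genes rose and 11.1% fell. Without WT replicate 1, WT replicate 3, KIN replicate 2 or KIN replicate 3, 0 rose, and without KIN replicate 1, 3 rose (the V-ATPase members). Over all genes 1.93%, 1.83%, 2.53%, 2.09% and 3.43% rose in these fits, in that order, and 3.99% to 5.27% fell. DESeq2 called *Atp6v0c* and *Cst3* alone (1.62% of all genes higher, 2.65% lower). Markers of other cells moved with genotype in this fraction. 3 of 6 oligodendrocyte markers rose, with sums of 393 to 607 CPM in WT and 715 to 717 CPM in KIN, as did both ependymal markers (17.3 to 20.3 and 31.9 to 37.9 CPM). 7 of 8 neuronal markers fell and 1, *Tubb3*, rose, with sums of 41.9 to 148 and 31.9 to 42.9 CPM. Of 7 astrocyte markers 3 fell and 1, *Gfap*, rose (493 to 728 and 277 to 300.3 CPM). Their part in the changes of *Cst3* and the V-ATPase genes was not tested. Of 67 further lysosome and V-ATPase genes tested here, 3 rose and 2 fell, where 4.33% of all genes rose and 7.57% fell. The share that rose was thus near that of all genes and the share that fell was under it. Those that rose were *Cln3* (log2FC 1.30 ± 0.37, adjusted *p* = 0.0131), the lysosomal membrane protein lost in juvenile ceroid lipofuscinosis, the lipid transporter *Abca2* (log2FC 0.72 ± 0.21, adjusted *p* = 0.0164) and the V-ATPase subunit *Atp6v1f* (log2FC 1.04 ± 0.31, adjusted *p* = 0.0182). Those that fell were the sulfatase *Arsb* (log2FC -2.39 ± 0.31, adjusted *p* = 1.11e-06) and *Atp6v1g2* (log2FC -2.16 ± 0.52, adjusted *p* = 0.00345), a V-ATPase subunit of neurons.

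In the neuronal fraction 0 of 29 tested members passed by edgeR and 0 by DESeq2, where 0.0148% of all genes, 1 of 6765 and that one lower, passed by edgeR. At an unadjusted *p* of at most 0.05 there was 1 member (*Laptm5*), against 5.04% of all genes. 5 members lay higher in KIN without overlap and 0 lower (13.9% of all genes in either direction, 11.7% higher), namely *Laptm5*, *Laptm4a*, *Lamp2*, *Atp6ap1* and *Ctsd*. *Ctsd* had 19.4, 16.4 and 18.6 CPM in the WT libraries and 23.3, 22.7 and 27.6 CPM in the KIN libraries (log2FC 0.23 ± 0.31 (SE), adjusted *p* = 0.974), and *Lamp2* did not pass either (log2FC 0.27 ± 0.24 (SE), adjusted *p* = 0.97). *Cd63* was at 7.56, 14.3 and 1.33 and 19.3, 6.47 and 14.7 CPM (log2FC 0.55 ± 0.48 (SE), adjusted *p* = 0.97) and a difference was not detectable at this depth. Without WT neuron replicate 2, or without WT neuron replicate 3, 0 members passed as well. Genotype and depth cannot be told apart in this fraction.

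Whether the effects of the mutation differ between both glial fractions was tested as an interaction over their 12 libraries. 0 of 39 members passed by edgeR and 0 by DESeq2, where 0.776% of the 13277 genes tested were higher in microglia by edgeR, 0.392% in astrocytes and 1.17% either. At an unadjusted *p* of at most 0.05 there were 10 members, 7 with the larger value in microglia and 3 in astrocytes, against 13.2% of all genes. The difference of the log2FC, microglia minus astrocytes, was 1.65 ± 0.49 (SE), adjusted *p* = 0.0727 for the aminopeptidase *Ctsh*, the smallest adjusted *p* of the members. *Ctsh* was at 22.3, 37.6 and 31.4 CPM in WT and 55.5, 41.9 and 37.9 CPM in KIN microglia, and at 2.47, 5.52 and 6.88 and 1.73, 3.07 and 2.68 CPM in astrocytes. The astrocyte values rest on 7, 17 and 22 reads in WT and 6, 6 and 7 in KIN. Of these, 7, 12 and 20 and 3, 1 and 3 were listed under a single transcript (ENSMUST00000127842). For *Cst3* the difference was 1.05 ± 0.40, adjusted *p* = 0.193, for *Ctsb* 0.91 ± 0.35, adjusted *p* = 0.195, for *Npc2* 1.02 ± 0.40, adjusted *p* = 0.207 and for *Cd63* 0.90 ± 0.35, adjusted *p* = 0.213. In astrocytes *Ctsb* was at 15.2, 21.7 and 14.1 CPM in WT and 19.6, 22.5 and 20.7 CPM in KIN, *Npc2* at 7.40, 12.7 and 8.14 and 8.92, 9.72 and 11.5 CPM, and *Cd63* at 16.6, 32.5 and 18.8 and 29.9, 35.3 and 34.1 CPM. Of these, *Ctsb* and *Npc2* overlapped between genotypes there, and *Cd63* overlapped through WT replicate 2. The fractions came from the same brains, which this fit does not model. With the replicate number as a block over the same 12 libraries *Ctsh* passed (log2FC difference 1.65, adjusted *p* = 0.0465) and the other 38 members did not, where 1.32% of all genes were higher and 0.67% lower. Without WT microglia replicate 2, 3 members passed, *Ctsh*, *Cst3* and *Grn* (0.839% of all genes higher, 0.65% lower), and without WT astrocyte replicate 1, *Ctsh* alone (0.459% higher, 0.237% lower).

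Over the 18 libraries the profiles of log2 CPM most like that of *Cd68* were those of *Ctss* (Pearson's r 0.99), *Grn* (0.98) and *Ctsz* (0.95), those most like *Cst3* were *Ctsa* (0.94), *Lgmn* (0.93) and *Ctsd* (0.93), and those most like *Cd63* were *Psap* (0.89), *Ctsb* (0.89) and *Lamp1* (0.88). These are descriptions over points that share the step between fractions and, across fractions, the mice. On GRCm39, *Cd63* lies at chr10:128731528-128748709 and *Ctsb* at chr14:63358384-63383372 on the plus strand, and *Cst3* at chr2:148713635-148717887 on the minus strand, all protein-coding. Several members share exonic bases with another gene of the opposite strand in GENCODE vM39, among them *Ctsb* with *Fdft1*, *Npc2* with *Isca2*, *Ppt1* with *Cap1*, *Lamp1* with *Grtp1* and *Ctsz* with *Nelfcd*, and *Ctsd* shares 808 exonic bases with *Gm49369* of its own strand. As the reads were counted without strand, reads in these stretches cannot be told apart. *Ctss*, *Ctsh*, *Lgmn*, *Cst3*, *Cd68*, *Lamp2* and *Atp6ap1* overlap no exon of another gene.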

How the data were processed

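RNA of astrocyte, microglial and neuronal fractions was sequenced from 3' ends with unique molecular identifiers after rRNA depletion. Per the submitters' processing notes, the authors used cutadapt 4.6, FastQC 0.11.9, MultiQC 1.23, Bowtie2 2.4.4, HTSeq 2.0.2 and DESeq2 with mm39, and reads were counted without strand. The deposited values used here are raw counts per transcript (116873 entries, 18 libraries). Columns of the authors' fold changes, *p*-values and means, and 36 other per-sample columns, were not used.

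Counts were summed by symbol, and 137 entries without a symbol (0.0222% of reads) kept their identifier. A fit kept genes that reached 5 reads in 2 or more of its libraries, which were tested with edgeR 4.0.16 (TMM, quasi-likelihood, Benjamini-Hochberg over all genes, prior count of 0.125) in R 4.3.3. The SE is the log2FC divided by the root of its F statistic. Each genotype comparison used its fraction's 6 libraries, WT fractions shared a fit of 9, and the interaction used 12. Fractions of a brain were treated as independent. The members, gene lists and tests were chosen with earlier results of these data known. Values were given for members that passed between genotypes, for *Cd68*, *Cst3* and *Cd63*, and for the 4 with the largest and lowest log2FC of WT microglia against astrocytes; others were added after their values were seen. Alternatives were DESeq2 1.42.0, its size factors, TMM without the 10 most abundant transcripts, other low-count filters, all 18 libraries in a single fit, the highest transcript in place of the sum, the fold rule, a replicate block, KIN in place of WT libraries, and each replicate left out. The fits were tested on simulated data.

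Errors hold only the spread between libraries and the sampling of reads, and the shallow neuronal libraries give the least precise values. Gene models and promoters came from GENCODE vM39 on GRCm39, the assembly of mm39.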

Additional observations from a re-analysis of the deposited data

How the results depend on the processing

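Counts of members moved with the processing. In astrocytes the 5 that rose became 1 with DESeq2 (1.62% of all genes rose), 0 with all 18 libraries in a single fit (2.35%), 1 with the highest transcript in place of the sum (3.93%) and 0 with the fold rule, and 0 to 10 when a replicate was left out. The 1 that fell, *Cst3*, was called under every alternative, and 2 fell with the highest transcript (7.36% of all genes) and 1 to 2 when a replicate was left out (3.99% to 11.1%). In microglia the 5 that rose became 8 with DESeq2 (4 of the 5 shared; 0.674% of all genes rose), 10 without the low-count filter (0.644%), 9 with all 18 libraries in a single fit (0.834%), 1 with the highest transcript (*Ctsb*; 0.352%) and 1 to 18 when a replicate was left out. The members that were lower in WT neurons than in astrocytes numbered 23 with KIN in place of WT libraries (18.1% of all genes lower, 14.2% higher). With these libraries 2 members were lower in microglia than in astrocytes and 23 higher (21% and 20.1% of all genes). In neurons 34 members were lower than in microglia and 1 was higher (16.4% and 12.7% of all genes). The 2 members higher in WT neurons than in astrocytes were 1 to 2 when a replicate was left out, and the 0 of the interaction were 0 to 3. The cause of these shifts was not tested.

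The small microglial log2FC of *Cst3* turned to -0.020 with the highest transcript, and when a replicate was left out it ran from -0.29 to 0.60; without WT replicate 1, WT replicate 3 or KIN replicate 1 it was -0.20, -0.24 and -0.29. Libraries of the same replicate number in WT and KIN of a fraction had correlations of their deviations from -0.06 to 0.05 over 13552 genes. Those of WT microglia with WT astrocytes, which come from the same brains, were 0.06, 0.21 and 0.10, and replicates 2 and 3 were closest to their own number, whereas the KIN libraries gave -0.01 to 0.03. No comparison had every pair over 0.1, so the numbers were not taken as pairs, and which numbers share a brain is not given in the sources used here. With the replicate number as a block, 6 members rose, *Tfeb* being added, and 1 fell in astrocytes (5.29% and 8.9% of all genes). In microglia 3 rose (*Cd63*, *Ctsb* and *Npc2*, with 0.739% of all genes), and 1 (*Ctsh*) passed in the interaction. Over all genes, 509 rose and 889 fell in astrocytes and 190 and 311 with DESeq2, and 91 and 86 in microglia and 73 and 10 with DESeq2 (307 and 249 without WT replicate 2). Without the low-count filter the median of all genes moved to -0.13 in astrocytes and to 0.26 in neurons, and with all 18 libraries in a single fit to 0.24 in neurons. Depth limits the neuronal fraction most.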
